A study of Mus musculus with 30 samples.

Results

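Nuclear RNA of mouse embryonic stem cells in early G1 (EG1) was compared with and without 1 h of degradation of SRCAP. These are 4 of the 30 libraries of the series, 2 replicates of unt EG1 and 2 of IAA EG1, chosen by their labels alone. SYAT cells derive from the CGR8 mouse ES cell line and carry YPet and an auxin-inducible degron (AID) at the end of both alleles of Srcap, with the plant receptor OsTir1, which ubiquitinates the AID-tagged protein when indole-3-acetic acid (IAA) is added. They go back to 1 knock-in clone, and both groups also express mCherry fused to a mitotic degron (MD). Both groups were kept in serum and LIF. The unt group received the Tir1 inhibitor auxinole and the IAA group 500 µM IAA for 1 h. EG1 cells were sorted as low in Hoechst and low in mCherry, since the MD destroys mCherry at the end of mitosis and the signal returns only later in G1. The LG1 cells used beside them, sorted as low in Hoechst and high in mCherry, had the same genotype and treatments. Unsorted SYAT cells with 2 h of IAA and CGR8 cells with 4 h of IAA, both at 500 µM, were also set beside them with their controls. The paper gives auxinole as the control condition of SYAT cells, and the CGR8 controls are labelled NT. CGR8 cells have no degron on SRCAP, so a response to IAA there does not come through the tagged protein.

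SRCAP is the catalytic subunit of a chromatin remodeling complex that exchanges histone H2A for the variant H2A.Z in nucleosomes, mostly at promoters and enhancers. H2A.Z flanks the start sites of active genes and marks poised developmental genes in ES cells. In mitosis most transcription stops, and it resumes in early G1, so the comparison asks which transcripts change when SRCAP is lost around that time. With 1 h of IAA, a cell collected in EG1 may have lost SRCAP before, during or after its division.

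The exon columns of the 4 EG1 libraries summed to between 20439335 and 26672402 counts and the intron columns to between 22775471 and 32872563. Intron counts reached between 1.11 and 1.23 times the exon counts, against between 0.185 and 0.358 times in LG1. Among single-exon genes, where no intron can be counted, 43.0% to 43.9% had counts in the EG1 intron columns and at most 0.0959% in LG1, so the EG1 intron columns hold exonic reads too, and the exon columns are the main measure here. Unt replicate 1 stood apart. It had the largest share of exon counts on loci of type TEC, which the annotation lists as awaiting experimental evidence, 0.383% against 0.246% to 0.262% in the other libraries, and the largest ratio of intron to exon counts. ES cell markers summed to 77569 to 95598 normalized counts in unt EG1 and to 89774 to 101624 in IAA EG1, while all 12 annotated markers of 2-cell-like cells and Postn, Lum and Dcn of mesenchymal cells were at 3 or fewer counts in each library. Marker sums of primitive endoderm were between 3621 and 4691, of mesendoderm 437 and 633, of trophectoderm 5717 and 6968, of neural progenitors 7722 and 9245, and of mesenchymal cells 3475 and 4395. In the unt libraries, replication-dependent histone genes had a median log2 ratio of EG1 to LG1 of −1.0, DNA replication genes of −0.35 and mitotic genes of 0.28, with the same sign in both replicates (−1.02 and −0.96, −0.43 and −0.25, 0.25 and 0.27).

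In the exon columns 20256 genes were tested by edgeR's quasi-likelihood test with the replicate number as block. At a Benjamini-Hochberg adjusted p under 0.05, 139 genes were lower after IAA, 0.686% of the genes tested, and 59 were higher, 0.291%. Of the 59, 52 were protein-coding, 6 were pseudogenes and 1 was the snoRNA gene Gm26448 (adjusted p = 0.038), while none was of a long noncoding or TEC type. Of the 139, 47 were protein-coding and 86 long noncoding or TEC, 60 of them TEC. These types make up 72.8%, 15.6% and 5.36% of the genes tested. At the study's thresholds for sorted cells, an unadjusted p under 0.05 and an absolute log2 fold change over 0.25, 893 genes (4.41%) were lower and 472 (2.33%) higher. The calls depend on the replicate block, since without it no gene passed an adjusted p of 0.05 in either direction in edgeR, and 245 were lower and 29 higher at the study's thresholds. With the block, 1 residual degree of freedom was left and every gene shared the variance of the trend, and DESeq2 with the same block called only Fos and Jun.

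**Figure D1:**
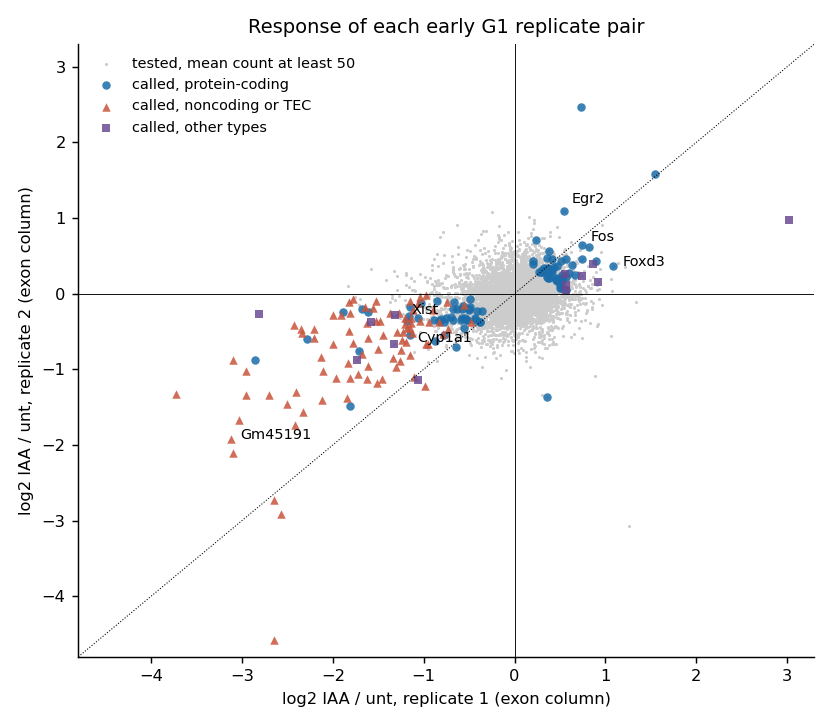
Log2 ratio of IAA to unt in replicate pair 1 (horizontal) and pair 2 (vertical) in the exon columns, with 1 point per gene. Genes called at an adjusted p under 0.05 are in blue (protein-coding), red (long noncoding or TEC) and purple (other types), and genes with a mean of at least 50 counts are in grey. Genes that fell lie mostly above the dotted line of equal response, with a median of −1.24 in pair 1 and −0.41 in pair 2, and genes that rose had medians of 0.50 and 0.29.

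The pairs differed in the size of the change. The calls come from a fit of both pairs, so that pairs of 1 sign are nearly given among them. Of the 139 lower genes, 138 were lower in both pairs, where 56.4% of all genes tested had the sign of their fold change in both pairs. In 131 of the 139 the change was larger in pair 1, and the groups did not overlap in 129, where 11.2% of all genes tested were lower without overlap. All 59 higher genes were higher in both pairs, and the groups did not overlap in 22, where 10.1% of all genes tested were higher without overlap. In a fit of all 8 sorted libraries, which also estimates the variance from LG1, 17 genes were lower and 14 higher in EG1 at an adjusted p under 0.05, and all 31 were among those called from the 4 libraries.

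Srcap itself was not called at the RNA level. It had 1358 and 1297 normalized exon counts in unt EG1 and 1287 and 1266 in IAA EG1, which is −0.06 ± 0.083 (SE) on the log2 scale (adjusted p = 0.88). IAA acts on the SRCAP protein, so the Srcap counts are no check of its depletion. None of the 9 subunit genes of the SRCAP complex and none of the 11 genes of H2A.Z and its other exchange factors passed the adjusted threshold. Ruvbl2, a AAA+ ATPase of the complex, had a log2 fold change of 0.10 ± 0.079, Dmap1 of −0.10 ± 0.095 and Znhit1 of 0.14 ± 0.13. H2afz, which encodes H2A.Z.1, had 5899 and 10661 counts in unt and 7129 and 10677 in IAA libraries, and H2afv, which encodes H2A.Z.2, 994 and 1197 against 1145 and 1365. Their log2 fold changes were 0.14 ± 0.082 and 0.20 ± 0.084, with adjusted p of 0.63 and 0.36.

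Immediate early genes, which are transcribed within minutes of growth factor or stress signals without new protein synthesis, were among the genes called higher. Of 24 tested, 10 were called higher, where 0.291% of all genes tested were, and none lower. At an unadjusted p under 0.05, 19 were higher against 4.68% of all genes, and 20 were higher in both pairs against 33.4% of all genes. The other 14 did not pass the adjusted threshold. Their median log2 fold change was 0.29, 0.34 in pair 1 and 0.25 in pair 2, beside 0.03 over all genes tested. Fos, a subunit of the AP-1 transcription factor, had 822 and 520 normalized counts in unt and 1374 and 812 in IAA libraries. Each IAA library was above the unt library of its number, though the lower IAA value lies below the higher unt value. The log2 fold change of Fos was 0.70 ± 0.090 with an edgeR adjusted p of 8.02e-11. Jun, the partner of Fos in AP-1, had 2765 and 1790 counts in unt and 4108 and 2469 in IAA, a change of 0.52 ± 0.079 (adjusted p = 2.36e-07). Fos and Jun also passed DESeq2 with the block, at adjusted p of 0.0041 and 0.0016. With 1 library left out, in a fit without the block, Fos ranged from 0.28 (without IAA replicate 1) to 1.07 (without unt replicate 1) on the log2 scale. Jun ranged from 0.13 to 0.88 without the same libraries. All values given here with 1 library left out come from such fits, which do not separate the replicate difference from the treatment.

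Atf3, a stress-induced factor of the ATF/CREB family, had 318 and 266 counts in unt and 561 and 408 in IAA libraries, with no overlap, and rose by 0.72 ± 0.11 on the log2 scale. Egr2, a zinc finger factor, had 333 and 126 counts in unt and 486 and 269 in IAA libraries, and its change of 0.77 ± 0.12 was larger in pair 2 (1.1) than in pair 1 (0.54). Egr1 rose by 0.35, from 4555 and 3228 to 6006 and 3996 counts. The other called members were Ier2 (0.35), Junb (0.35), Dusp1 (0.32), a phosphatase that dampens MAP kinases, Klf6 (0.33) and Fosb (0.44), all with adjusted p between 0.0033 and 0.023. In Ier2, Junb, Dusp1 and Klf6 the groups did not overlap. With 1 library left out, Egr2 ranged from 0.12 (without unt replicate 2) to 1.59 (without unt replicate 1), Egr1 from 0.047 (without IAA replicate 1) to 0.63 (without unt replicate 1) and Ier2 from 0.15 (without unt replicate 1) to 0.51. Junb came to 0.18 without unt replicate 2 and Fosb to −0.082, while Atf3, Dusp1 and Klf6 moved by less than 1.5 times. Myc, with 535 and 1632 counts in unt and 647 and 1922 in IAA libraries, had a log2 fold change of 0.25 and did not pass (adjusted p = 0.16). Without unt replicate 1 the list median was 0.47.

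**Figure D2:**
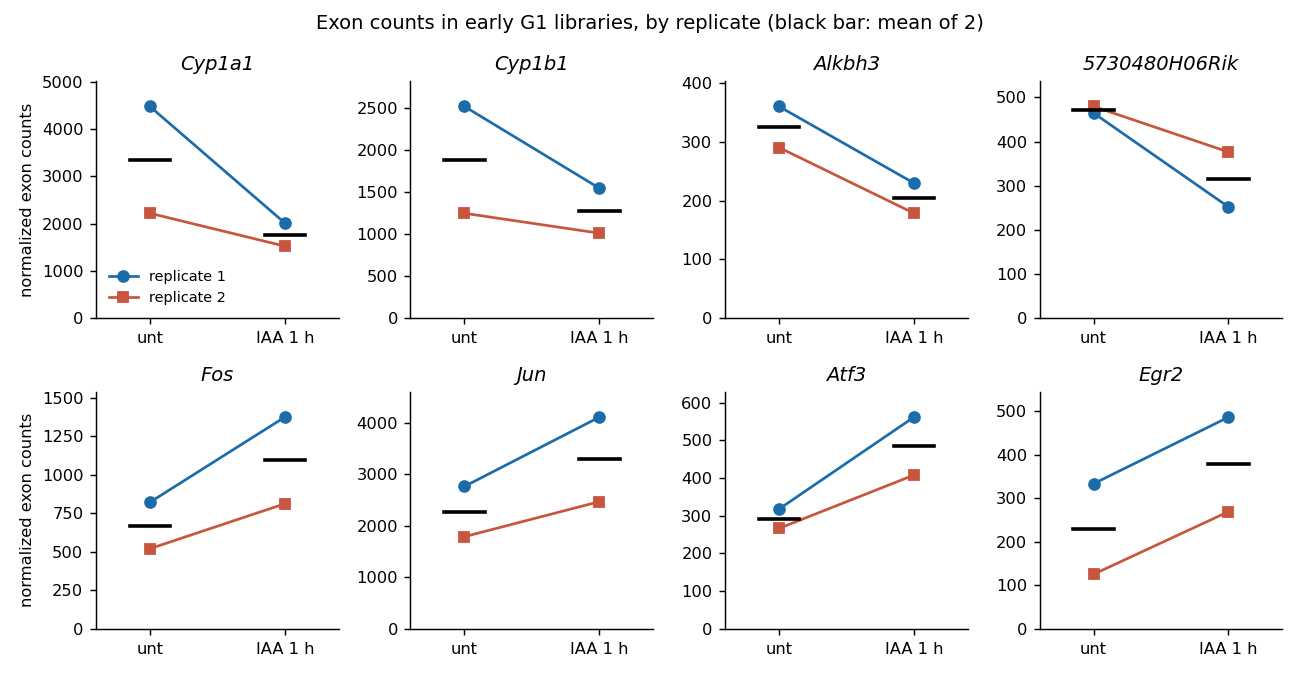
Normalized exon counts (vertical, from 0) of 8 genes in the unt and IAA libraries of EG1 (horizontal), with replicate 1 as blue circles, replicate 2 as red squares and the mean of 2 as a black bar. In each panel both replicates moved the same way, as for Cyp1a1 from 4478 to 2014 and from 2220 to 1524, and for Fos from 822 to 1374 and from 520 to 812.

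The 4 promoters shown here belong to the protein-coding genes called the same way in the exon and the intron columns with the smallest sum of ranks, Cyp1a1, which fell, and Rhob, Fos and Foxd3, which rose. Each is the 250 bases before the RefSeq start site on GRCm38.p6 (the mm10 build), 5′ to 3′ on the gene's strand, with motif matches in capitals. The motifs searched on both strands were TTGCGTG (the aryl hydrocarbon receptor site), TGAGTCA (AP-1), TGACGTCA (CRE), TATAAA (the TATA box), GGGCGG (the GC box) and the CArG box bound by SRF.
Cyp1a1, chr9:57697363-57697612, plus strand: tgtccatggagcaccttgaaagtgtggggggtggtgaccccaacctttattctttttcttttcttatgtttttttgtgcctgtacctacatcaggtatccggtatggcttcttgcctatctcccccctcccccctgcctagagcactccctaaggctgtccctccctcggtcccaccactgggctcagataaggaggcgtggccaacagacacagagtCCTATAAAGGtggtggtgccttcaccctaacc
Fos, chr12:85473640-85473889, plus strand: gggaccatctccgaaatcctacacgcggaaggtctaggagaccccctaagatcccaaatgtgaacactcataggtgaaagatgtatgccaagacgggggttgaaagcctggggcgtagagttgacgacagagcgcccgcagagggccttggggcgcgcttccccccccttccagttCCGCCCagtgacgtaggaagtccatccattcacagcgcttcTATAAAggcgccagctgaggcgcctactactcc
Rhob, chr12:8500010-8500259, minus strand: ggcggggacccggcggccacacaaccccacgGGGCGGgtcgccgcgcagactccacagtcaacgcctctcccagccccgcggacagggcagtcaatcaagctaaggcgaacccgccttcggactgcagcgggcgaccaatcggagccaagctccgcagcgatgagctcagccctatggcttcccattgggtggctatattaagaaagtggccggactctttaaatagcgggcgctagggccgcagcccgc
Foxd3, chr4:99656049-99656298, plus strand: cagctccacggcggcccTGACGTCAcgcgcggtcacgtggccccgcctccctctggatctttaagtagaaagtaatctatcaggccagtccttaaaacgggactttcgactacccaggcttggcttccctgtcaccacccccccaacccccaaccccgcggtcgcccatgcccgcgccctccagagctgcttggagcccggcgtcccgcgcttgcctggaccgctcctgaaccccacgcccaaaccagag
The Cyp1a1 window holds TATAAA from −30 to −25 inside a CArG box match from −32 to −23, and the Fos window TATAAA from −33 to −28 and a GC box (CCGCCC on this strand) from −74 to −69, counted back from the start site. The Rhob window holds a GC box from −219 to −214 and the Foxd3 window a CRE from −233 to −226. Of 32851 promoter windows of the same length, 12.4% hold TATAAA, 32.7% GGGCGG, 1.55% TGACGTCA, 1.47% a CArG box, 0.925% TTGCGTG and 4.46% TGAGTCA. The windows of Fos and Rhob share the GC box and those of Cyp1a1 and Fos share TATAAA, and no motif searched was matched in all 3 genes that rose. The matches describe letters and not binding.

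Replication-dependent histone genes, whose transcripts lack a poly(A) tail and peak in S phase, were also among the genes called higher. Of 57 tested, 14 were called higher, where 0.291% of all genes tested were, none was lower, and 43 did not pass. At an unadjusted p under 0.05, 46 were higher against 4.68% of all genes, and 51 were higher in both pairs against 33.4%, with a median log2 fold change of 0.26 (0.37 in pair 1 and 0.18 in pair 2). Hist1h2ae, a histone H2A gene, had 330 and 579 counts in unt and 553 and 793 in IAA libraries (0.59 ± 0.099, adjusted p = 7.08e-06), Hist1h2ab 409 and 709 against 565 and 913 (0.41 ± 0.096), and Hist3h2ba, which encodes H2B, 93.7 and 251 against 175 and 337 (0.62 ± 0.15). In each the unt values of the replicates were further apart than the values of 1 pair, and the groups overlapped. Unt replicate 1 had the lowest count of each. Without it, in a fit without the block, the list median was −0.09, while pair 2, which does not use it, had 0.18. Such a fit does not separate the replicate difference from the treatment. Without unt replicate 1 Hist1h2ae had a log2 fold change of 0.22, Hist1h2ab of 0.060 and Hist3h2ba of 0.029. Without IAA replicate 2 the last 2 had −0.0069 and 0.0033. These genes are near-identical copies, and how the counting split shared reads between them is not given in the sources used here. EG1 and LG1 differed more in this list than IAA and unt did, so values for histone genes also move with the position of the cells in G1, whose part in the result was not tested.

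The other genes that rose include regulators of signalling and transcription. Trib1, a pseudokinase, had 519 and 846 counts in unt and 742 and 1137 in IAA libraries (0.47 ± 0.091), and Rhob, a small GTPase of endosomes, 2800 and 2910 against 4133 and 3388 (0.39 ± 0.079) with no overlap. Klf2, a naive pluripotency factor, had 4537 and 5403 counts in unt and 5830 and 6709 in IAA libraries, without overlap, and was the only one of 18 ES cell markers called (0.34 ± 0.080, adjusted p = 0.0070). Klf5, at 0.25 on the log2 scale (adjusted p = 0.093), did not pass. All 18 markers had a log2 fold change above 0, where 57.8% of all genes had, and 15 were higher in both pairs against 33.4%. Their median was 0.14 (0.19 in pair 1 and 0.07 in pair 2), and 0.014 without unt replicate 1. The median was 0.14 in LG1, 0.13 after 2 h and 0.03 in CGR8 cells. After 2 h 13 of the 18 were called higher, where 9.6% of genes tested were. Sgk1, a serum- and glucocorticoid-induced kinase, rose by 0.35, Zfp750 by 0.40, and the secreted protease gene Adamts1 by 0.45. In CGR8 cells Sgk1 also rose (0.49 ± 0.10, edgeR adjusted p = 0.023), where 1.79% of genes tested were called higher. Trib1 (0.34) and Zfp750 (0.16) were above 0 there and Rhob (−0.40) and Klf2 (−0.18) below 0, and none of these passed. Gm10036, a processed pseudogene, rose from 532 and 689 to 889 and 808 counts, and its reads may come from its parent gene. Foxd3, a factor of pluripotent and neural crest cells, had 63.9 and 664 counts in unt and 136 and 858 in IAA libraries. Its replicates differed by far more than its treatment groups, and without unt replicate 1 its log2 fold change was −0.42 in place of 0.55. Values of other genes here also moved with 1 library left out, in fits without the block. Without unt replicate 1, Trib1 had a log2 fold change of 0.15, Sgk1 of 0.043, Adamts1 of 0.21, Gm10036 of 0.30 and Klf2 of 0.21. Without IAA replicate 2 Trib1 had 0.097, Sgk1 0.0049 and Klf2 0.20. In pair 2, which does not use unt replicate 1, Trib1 had 0.43, Sgk1 0.30, Gm10036 0.23 and Klf2 0.31. Rhob had 0.25 and Zfp750 −0.12 without IAA replicate 1.

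Of 19 genes of the p53 pathway, Bbc3, which encodes the pro-apoptotic PUMA, was called higher (1246 and 1344 against 1727 and 1558 counts, 0.34 ± 0.082), and 10 were higher at an unadjusted p under 0.05, where 4.68% of all genes tested were. The median of the list was 0.16, and 0.25 without unt replicate 1. Of 32 genes of ATF4 and the integrated stress response, Ddit4, an inhibitor of mTORC1, was called higher (0.30 ± 0.079, adjusted p = 0.023), by 0.52 in pair 1 and 0.08 in pair 2, and without IAA replicate 1 its value was −0.029. Mitochondrially encoded genes had a median of 0.22, close in both pairs (0.23 and 0.21), but none of 7 passed. mt-Nd6 came nearest, with 4245 and 4235 counts in unt and 5192 and 4989 in IAA libraries (0.26 ± 0.079, adjusted p = 0.073). The median of the list was 0.003 in LG1, 0.13 after 2 h and 0.87 in CGR8 cells. After 2 h 6 of 7 were called higher and in CGR8 cells 5 of 7, where 9.6% and 1.79% of genes tested were.

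**Figure D3:**
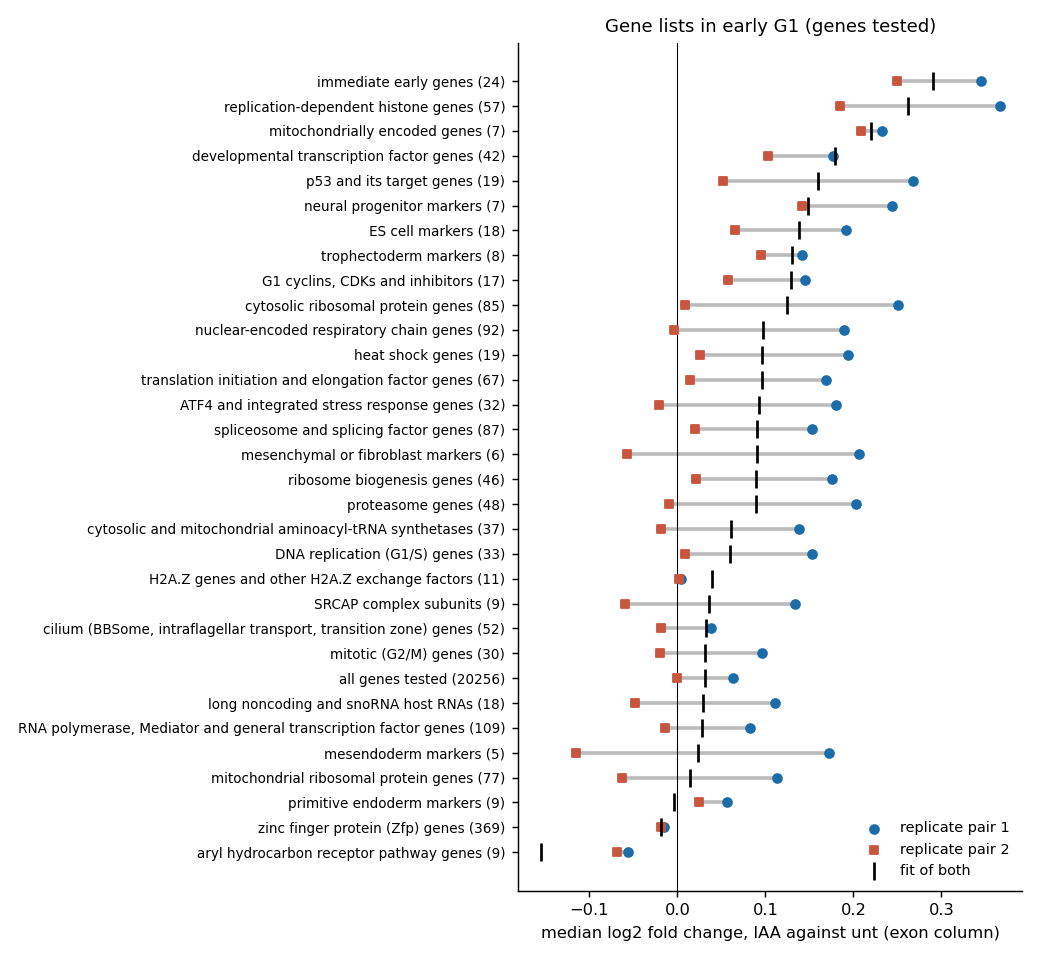
Median log2 fold change of IAA against unt in the exon columns of EG1 (horizontal) for each gene list (vertical, with the number of genes tested), in replicate pair 1 (blue circles), pair 2 (red squares) and the fit of both (black lines). Immediate early genes (0.29) and replication-dependent histone genes (0.26) have the highest medians, and those of most other lists lie near 0 in pair 2.

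Targets of the aryl hydrocarbon receptor (AHR), a ligand-activated factor that induces xenobiotic metabolism, were among the genes that fell. Of 9 genes of the pathway tested, 3 were called lower, where 0.686% of all genes tested were, and none higher. Cyp1a1, which encodes a cytochrome P450 and is the most used readout of AHR activity, was the gene with the smallest p of all. It had 4478 and 2220 normalized counts in unt and 2014 and 1524 in IAA libraries, without overlap, a change of −0.86 ± 0.081 on the log2 scale (adjusted p = 4.80e-22). Cyp1b1, another cytochrome P450, had 2513 and 1245 counts in unt and 1543 and 1009 in IAA libraries (−0.52 ± 0.082, adjusted p = 1.07e-06), and its higher IAA value lies above its lower unt value. Tiparp, an ADP-ribosyltransferase that feeds back on AHR, had 4817 and 4569 against 3425 and 4356 counts (−0.28 ± 0.079, adjusted p = 0.045), nearly all of it in pair 1 (−0.49 against −0.07), and −0.10 without IAA replicate 1. Ahr itself had a log2 fold change of 0.17 ± 0.084 and did not pass. For Cyp1a1 and Cyp1b1 unt replicate 1 had the highest count. Without it, in a fit without the block, their log2 fold changes were −0.33 and 0.03. In pair 2, which does not use unt replicate 1, they were −0.54 and −0.30.

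Cyp1a1 and Cyp1b1 were also lower in each of the other comparisons, CGR8 cells included. Cyp1a1 had log2 fold changes of −1.02 ± 0.11 in LG1, −0.72 ± 0.078 after 2 h in unsorted SYAT cells and −1.73 ± 0.19 in CGR8 cells, and Cyp1b1 of −0.65, −0.47 and −1.33. All 6 values passed an adjusted p of 0.05, where 0.0253% of genes tested in LG1, 8.56% after 2 h and 1.19% in CGR8 cells were called lower. These genes were thus lower with IAA in cells that carry no degron on SRCAP. The cause of their fall in EG1 was not tested. Tiparp was lower in LG1 (−0.41, adjusted p = 0.0065) and after 2 h (−0.17, adjusted p = 0.0048), and had a value of 0.22 in CGR8 cells (adjusted p = 0.41).

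Other protein-coding genes fell in EG1 and had values below 0 in the other SYAT comparisons and above 0 in CGR8 cells. Alkbh3, a DNA and RNA demethylase that repairs alkylation damage, had 360 and 290 counts in unt and 230 and 178 in IAA libraries, without overlap, and fell by nearly the same amount in both pairs (−0.65 and −0.70). Its log2 fold change was −0.67 ± 0.13 (adjusted p = 0.00021) in EG1, −0.62 in LG1 (adjusted p = 0.093), −0.70 after 2 h (adjusted p = 3.88e-05) and 0.16 in CGR8 cells (adjusted p = 0.73). Zup1, a deubiquitinase for K63-linked chains, had 464 and 295 against 261 and 230 counts (−0.61 ± 0.12), with −0.23 in LG1, −0.58 after 2 h and 0.50 in CGR8 cells. The uncharacterized gene 5730480H06Rik had 464 and 479 against 252 and 376 counts (−0.60 ± 0.11), with −0.45 in LG1, −0.52 after 2 h and 0.30 in CGR8 cells. At 2 h Zup1 and 5730480H06Rik passed the adjusted threshold, in LG1 and in CGR8 cells neither did. With 1 library left out, Alkbh3 moved by less than 1.5 times, while Zup1 had −0.26 without unt replicate 1 and 5730480H06Rik −0.32 without IAA replicate 1. Whether the responses of SYAT and CGR8 cells differ was not tested, and IAA was given for 1 or 2 h in SYAT and for 4 h in CGR8 cells.

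Pmm2, an enzyme of protein glycosylation, fell by 0.43 on the log2 scale, Lman2l, a lectin of the secretory pathway, by 0.38, and Arrdc3, an arrestin-domain protein, by 0.29. Arrdc3 was also lower in LG1 (−0.37, adjusted p = 0.0076) but had −0.03 after 2 h. P2ry14, a receptor for UDP-sugars, had 178 and 79.0 counts in unt and 53.9 and 46.5 in IAA libraries (−1.30 ± 0.22), against 0.44 in LG1 and 0.85 after 2 h, which did not pass. In LG1 P2ry14 had 106 and 61.5 counts in unt and 198 and 48.5 in IAA libraries, so its pairs moved in opposite directions there. The difference of its responses in EG1 and LG1 had an adjusted p of 0.13. Zfp202, a zinc finger repressor, was called lower with 695 and 571 against 340 and 526 counts, a change of −1.03 in pair 1 and −0.12 in pair 2. Of 369 Zfp genes tested, Zfp202 was the only one called lower and Zfp750 the only one higher, and 21 (5.69%) were lower and 6 (1.63%) higher at an unadjusted p under 0.05, where 4.89% and 4.68% of all genes tested were, with a median of −0.02 that compares with −0.25 after 2 h. Lars2, the mitochondrial leucyl-tRNA synthetase, was called lower but had 1742 and 1321 counts in unt and 2235 and 512 in IAA libraries, so that its pairs moved in opposite directions. Without unt replicate 1, P2ry14 had a log2 fold change of −0.65, Lman2l of −0.098 and Arrdc3 of −0.19, and without IAA replicate 1 Zfp202 had −0.26.

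Most of what fell was long noncoding or TEC and of low abundance, and it fell mainly in pair 1. The 86 long noncoding or TEC genes called lower, 60 of them TEC, had a median of 59.9 normalized counts. Their median log2 fold change was −1.08, −1.54 in pair 1 and −0.58 in pair 2. For 82 of the 86 the change was larger in pair 1. In LG1 their median was −0.04 and after 2 h it was 0.29. Of the 139 genes called lower, 65 lie inside another gene on the same strand, 46.8% against 8.68% of all genes tested, so that their reads may belong to unspliced transcripts of the host gene. Gm45191, a TEC locus, had 54.7 and 46.6 counts in unt and 5.86 and 11.9 in IAA libraries (−2.49 ± 0.42), and the sense intronic Gm43260 had 53.9 and 29.5 against 5.86 and 6.49 (−2.69 ± 0.47). Gm48602, which lies inside Ptprg, had 178 and 144 against 51.6 and 90.8 counts (−1.18 ± 0.19), and Gm47024, inside Grip1, 375 and 214 against 193 and 135 (−0.82 ± 0.14). In these 4 the groups did not overlap, and without unt replicate 1 Gm47024 had a log2 fold change of −0.38. Over all 1085 TEC loci tested the median was −0.34, −0.55 in pair 1 and −0.09 in pair 2. The larger TEC share and intron ratio of unt replicate 1 move with this result, and their part in it was not tested.

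The long noncoding RNAs Xist and Kcnq1ot1, which silence genes in cis on the X chromosome and in an imprinted cluster, were among the genes with the smallest p. Xist had 629 and 409 counts in unt and 272 and 328 in IAA libraries (−0.77 ± 0.11, adjusted p = 2.24e-08), and Kcnq1ot1 12591 and 8398 against 6782 and 7261 (−0.55 ± 0.082, adjusted p = 1.11e-07). Neither overlapped between groups in EG1. Their values were 0.32 and 0.25 in LG1, where neither passed, and 0.60 and 0.34 after 2 h, where both did. In LG1 the replicates moved in opposite directions. Xist had 449 and 363 normalized counts in unt LG1 and 854 and 253 in IAA LG1, and Kcnq1ot1 8034 and 6662 against 13380 and 5555. In the fit of 8 libraries they had adjusted p of 0.11 and 0.089. Without unt replicate 1 their log2 fold changes were −0.45 and −0.26. Neat1, a nuclear RNA of paraspeckles, had a log2 fold change of −0.20 and did not pass.

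Most genes that rose in EG1 were also above 0 in the other SYAT comparisons. Of the 59, 52 (88.1%) were higher in LG1, against 51.3% of the EG1 genes with a value there. At an unadjusted p under 0.05, 39 (66.1%) were higher, against 4.98%. After 2 h, 53 of 58 (91.4%) were higher against 51.5%, and 36 (62.1%) at an unadjusted p under 0.05 against 15.2%. In CGR8 cells 25 of 57 (43.9%) were higher and 32 (56.1%) lower, against 50.8% and 49.2%. There 12 (21.1%) were higher at an unadjusted p under 0.05 against 9.20%, and 13 (22.8%) lower against 8.38%. LG1, the 2 h libraries and CGR8 share no library with EG1, and the shares are descriptions without a test. The difference between the unt replicates correlated at 0.57 between EG1 and LG1 in the exon columns, so the 2 phases share replicate differences. Immediate early genes had medians of 0.23 in LG1, 0.31 after 2 h and −0.06 in CGR8 cells. Among them Egr1 had 0.46 and Jun −0.70 in CGR8 cells, and neither passed. Fos had 0.45 ± 0.069 in LG1 and 0.79 after 2 h, which passed, and −0.23 in CGR8 cells, which did not, where 0.0556%, 9.6% and 1.79% of the genes tested were called higher. Of the 47 protein-coding genes that fell, 35 (74.5%) were lower in LG1, against 46.9% of protein-coding genes. At an unadjusted p under 0.05, 20 (42.6%) were lower, against 4.01%. After 2 h 30 of the 47 (63.8%) were lower, against 51.0% of protein-coding genes. In CGR8 cells 18 of the 47 (38.3%) were lower and 29 (61.7%) higher, against 52.6% and 47.4% of protein-coding genes. Of all 139 genes that fell, 85 of 137 with a value (62.0%) were lower in LG1, against 48.7% of all genes. After 2 h 51 of 124 (41.1%) were lower and 73 (58.9%) higher, against 48.5% and 51.5%.

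**Figure D4:**
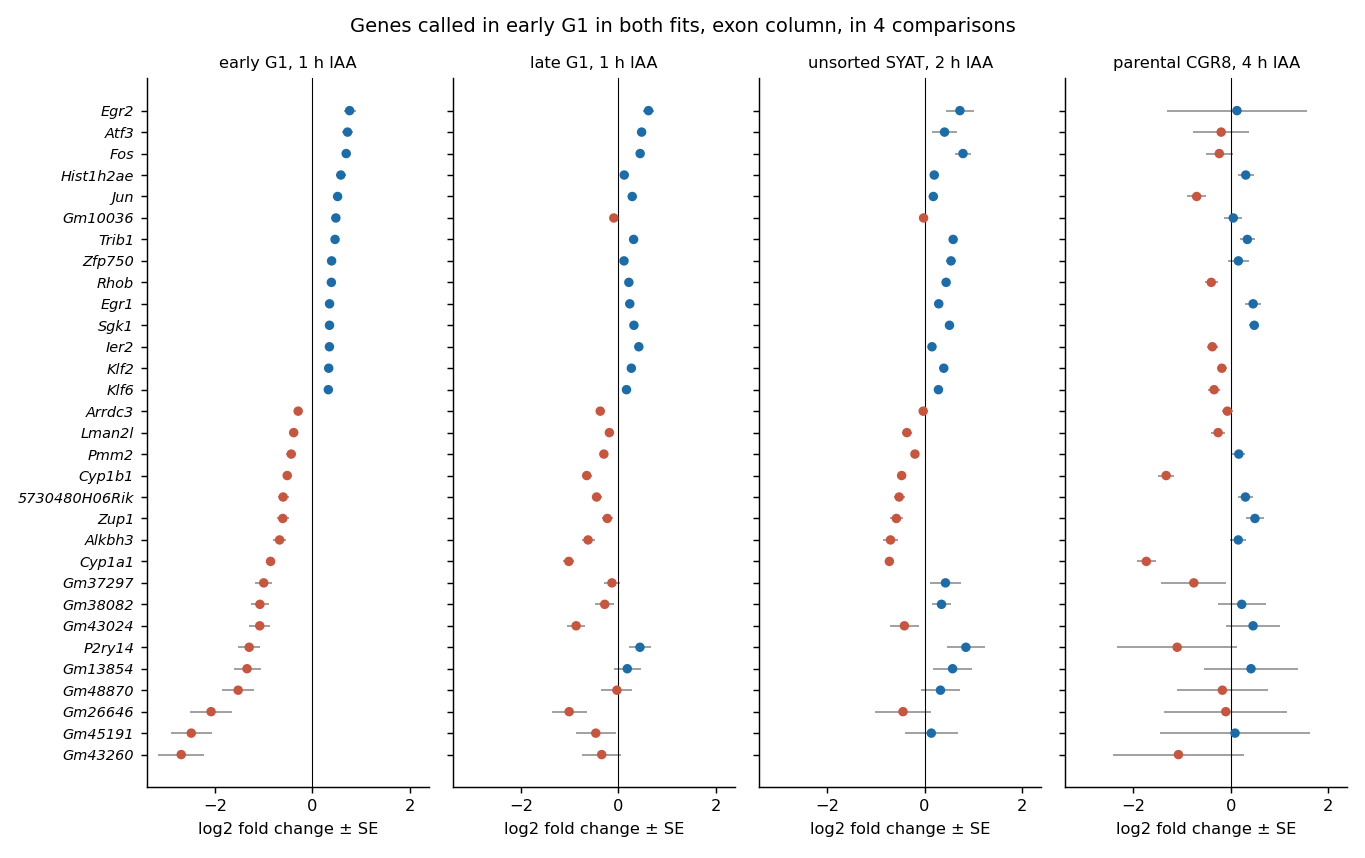
Log2 fold change with its standard error (horizontal) of the 31 genes called in EG1 both with 4 and with 8 libraries (vertical), in 4 comparisons of exon counts, with values below 0 in red and above 0 in blue. Cyp1a1 and Cyp1b1 are lower in all 4 panels, Alkbh3, Zup1 and 5730480H06Rik in the SYAT panels only, and Fos and Jun are higher in the SYAT panels and below 0 in CGR8 cells.

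The response to IAA was tested for a difference between EG1 and LG1 in 21020 genes. At an adjusted p under 0.05, 5 genes (0.0238%) had a lower response in EG1 and 0 (0%) a higher one, and none of the 5 was called in EG1 itself. They are 4 miRNA loci and the antisense gene Gm15564, and each was high in LG1 IAA replicate 1 alone. At an unadjusted p under 0.05 and a difference over 0.25, 563 genes (2.68%) were lower and 310 (1.47%) higher, and DESeq2 with the block gave no gene at an adjusted p under 0.05. For Fos, Jun, Atf3, Egr2, Cyp1a1, Cyp1b1 and Alkbh3 the adjusted p of the difference was 0.999. The difference in the response of Cyp1a1 was 0.12 ± 0.18 and the median over immediate early genes was 0.05.

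Several large gene groups of growing cells had no called gene in EG1. With 0.686% of all genes tested called lower and 0.291% higher, few calls or none are what lists of this size hold at the same share. None of 85 cytosolic ribosomal protein genes was called, but 84 had a log2 fold change above 0, where 57.8% of all genes had, and 15 were higher and none lower at an unadjusted p under 0.05. Their median was 0.12, 0.25 in pair 1 and 0.01 in pair 2. None of 77 mitochondrial ribosomal protein genes, 92 nuclear-encoded respiratory chain genes, 48 proteasome genes, 87 splicing genes, 67 translation factor genes, 46 ribosome biogenesis genes or 109 genes of RNA polymerases, Mediator and general factors passed. Among cell cycle genes, none of 30 mitotic genes (median 0.03), 33 DNA replication genes (0.06) or 17 G1 cyclins, CDKs and inhibitors (0.13) passed. Ccnd1, which encodes cyclin D1, came nearest with 1126 and 2322 counts in unt and 1476 and 2553 in IAA libraries (0.26 ± 0.080, adjusted p = 0.098). None of 52 cilium genes passed, with a median of 0.03 in EG1 against −0.19 after 2 h, and none of 19 heat shock genes. Of 42 developmental transcription factor genes only Foxd3 was called, and none of the tested markers of primitive endoderm, mesendoderm, trophectoderm, neural progenitors or mesenchymal cells was.

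In the intron columns 15311 genes were tested, and 661 (4.32%) were lower and 111 (0.725%) higher at an adjusted p under 0.05, and 1380 (9.01%) and 625 (4.08%) at the study's thresholds. With the exon columns they shared 25 lower genes, 17.99% of those called from exons and 3.78% of those called from introns, and 26 higher genes, 44.1% and 23.4%. No gene was called in opposite directions. Cyp1a1 dropped from 3045 and 865 to 388 and 90.4 normalized intron counts (−3.09 ± 0.16, adjusted p = 2.38e-81), and it also passed DESeq2 with the block at 1.26e-48. Without unt replicate 1 its log2 fold change was −1.87. Trim56, a ubiquitin ligase of antiviral signalling, was not called in the exon columns. In the intron columns it rose from 50.8 and 26.0 to 416 and 102 counts and passed DESeq2 as well (adjusted p = 1.08e-05). Its log2 fold change there was 2.59, and 1.4 without IAA replicate 1. Rhob, a gene of 1 exon, rose from 323 and 406 to 1792 and 830 counts, so counts in its intron column do not come from an intron of its own. Of 24 immediate early genes 22 were tested in the intron columns, 10 were called higher and none lower, with a median of 0.36.

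Many of the strongest intron calls were genes listed at 0 in some library. Of the 661 lower genes 84 had a 0 in at least 1 library, and of the 111 higher genes 27. Hibadh, an enzyme of valine breakdown, had 813 and 95.4 counts in unt and none in IAA libraries, at least 131-fold lower with a floor of 3 counts per library, and Disp1, which releases Hedgehog proteins, 517 and 120 against none, at least 92.2-fold lower. Pipox, a peroxisomal oxidase, had none in unt and 113 and 83.7 in IAA libraries, at least 37.6-fold higher. Arhgef7, an exchange factor for Rac, had 1662 and 622 against 188 and 0 counts. None of Hibadh, Disp1, Pipox and Arhgef7 was called in the exon columns. Of 11211 genes with several exons and a mean exon count over 100, 1259 were listed at 0 introns in all 4 libraries 67 in 1, 121 in 2 and 76 in 3 of them, so a 0 here is not a measure of absent transcription. Among genes with no 0 in any library, 577 were called lower and 84 higher.

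The intron calls followed gene length. Genes called lower had a median length of 177408 bases against 22754 bases over all genes tested. Among protein-coding genes with a mean of at least 50 counts, 0.0979% of those under 5 kb were called lower, 10.7% of those from 100 to 200 kb and 39.0% of the 765 over 200 kb. For genes over 200 kb the median log2 ratio of IAA to unt was −0.61 in pair 1 and −0.15 in pair 2, and unt replicate 1 exceeded unt replicate 2 by a median of 0.39, while the IAA libraries differed by −0.05. In the exon columns the medians of the same length class were −0.06 and 0.01. Without unt replicate 1, the median of long genes in the intron columns was −0.18. The difference between the unt replicates was thus larger than the drop in pair 2, and its part in the calls was not tested.

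**Figure D5:**
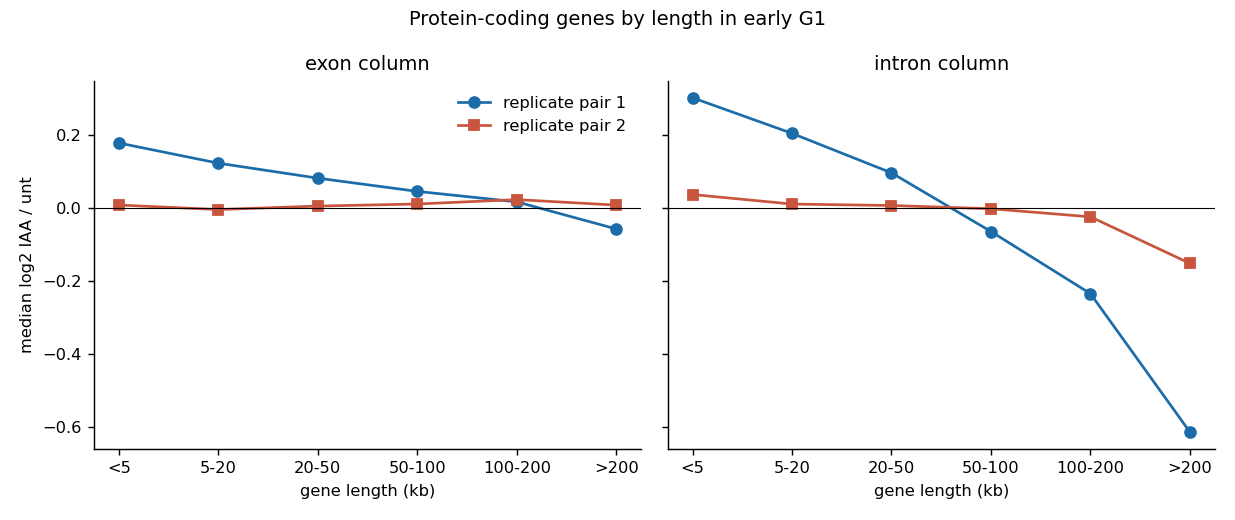
Median log2 ratio of IAA to unt (vertical) of protein-coding genes with a mean of at least 50 counts by gene length in kb (horizontal), in the exon columns (left) and the intron columns (right), for replicate pair 1 (blue circles) and pair 2 (red squares). In the intron columns pair 1 goes from 0.30 under 5 kb to −0.61 over 200 kb, and pair 2 from 0.04 to −0.15.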

How the data were processed

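Nuclear RNA was sequenced from SYAT cells sorted in EG1, with 2 replicates per condition that were cultured and treated independently. According to the Methods and the processing notes, the authors used STAR for alignment (mm10) and featureCounts for counting, on GENCODE vM25 exons and on introns, defined as gene bodies without exons, after a directional library kit. Whether the counting used strand is not given in the sources used here. Genes that overlap another on the other strand, such as P2ry14 (Med12l) and Zfp750 (Tbcd), may thus hold reads of that gene. The authors deposited whole-number counts per gene, an exon and an intron column per library, without normalization. Tables of the authors' own comparisons, with log2 fold changes and p-values, were not used here.

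Symbols and coordinates come from the annotation at hand (GRCm38), in which 55141 of 55401 identifiers matched without version and 54349 with it. Counts were tested in R 4.3.3 with edgeR 4.0.16 (quasi-likelihood test, TMM, filterByExpr with a minimum count of 10 and a minimum total of 15) on the 4 EG1 libraries, with replicate number and treatment as terms and Benjamini-Hochberg adjustment over all genes tested. Normalized counts are counts divided by the TMM-scaled library size and brought to the geometric mean of the libraries. Pair values are log2 ratios of normalized counts with a pseudocount of 0.5. LG1, 2 h and CGR8 comparisons were fitted in the same way on their own libraries, and the difference of EG1 and LG1 responses as an interaction over 8 libraries. DESeq2 1.42.0 was an alternative. The model code was tested on simulated data. Deviations of libraries with the same number correlated at 0.52 in the exon and 0.72 in the intron columns, over 2 pairs, and the block follows the comparison as set for these libraries. In the EG1 fits with the block, p-values do not measure the spread between replicates of a group, which the block takes out. They rest on how far the treatment differences of 2 replicate pairs disagree, through a variance trend shared by all genes.

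The named genes are up to 12 lower and 12 higher with the smallest p at an adjusted p under 0.05 in each column, Srcap, the other subunits and H2A.Z genes, and up to 4 members of each list with the smallest p. Alkbh3, Zup1, 5730480H06Rik, Pmm2, Lman2l, Arrdc3, Sgk1, Myc, Gm26448 and the remaining called immediate early genes were named after their values were seen. The members and lists were chosen with earlier results of these data known. Promoters are from RefSeq (GRCm38.p6).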

Additional observations from a re-analysis of the deposited data

Results flagged for a closer look

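The response to IAA differed between EG1 and LG1 at an edgeR adjusted p under 0.05 in 5 genes, all lower in EG1 than in LG1. The difference of the log2 fold changes was −6.13 for Gm25911, −5.95 for Gm24187, −4.37 for Gm24270, −4.16 for Mir6236 and −3.42 for Gm15564. The first 4 are annotated as miRNAs and Gm15564 as an antisense gene, and none was called in EG1, where their log2 fold changes were −0.10, −0.40, −0.29, 0.44 and 0.21. Each was high in LG1 IAA replicate 1 and low in LG1 IAA replicate 2, and DESeq2 with the block called none of them.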

How the results depend on the processing

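Counts below are lower and higher genes at an adjusted p under 0.05 and then at the study's thresholds. The replicate block decides the calls. Without the replicate block the exon columns gave 0 and 0 genes and 245 and 29, the intron columns 0 and 0 and 238 and 39, and the difference between EG1 and LG1 0 genes lower and 95 and 52. With the block, 2 pairs leave 1 residual degree of freedom. DESeq2 with the block gave 0 and 2 and again 0 and 2 in the exon columns, 32 and 3 and 399 and 41 in the intron columns, and 0 lower and 50 and 38 for the difference. DESeq2 without the block gave 0 and 0 and 0 and 0 in the exon columns, and 9 and 2 and 249 and 16 in the intron columns. DESeq2 size factors gave 68 lower exon genes, and 15 and 1 intron genes. Total counts as scaling moved the balance to 261 lower and 31 higher exon genes, with 192 higher at the study's thresholds, and gave 19 and 1 intron genes, with 243 higher. All 8 sorted libraries gave 17 and 14 exon genes and 61 and 8 intron genes, with 280 higher at the study's thresholds. Intron counts minus exon counts gave 97 and 12. No filter, a robust prior and genes without a 0 (the last 2 added after seeing the data) left the exon and intron counts they were run on within 1.5 times.

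With 1 library left out, the fit has no block, and the lone sample is assumed to vary like the other group. Such a fit does not separate the replicate difference from the treatment. Exon counts then ranged from 0 to 27 lower and 0 to 6 higher at the adjusted threshold, and from 67 to 854 and 58 to 291 at the study's, where leaving out unt replicate 1 gave 67 lower and 291 higher. Intron counts ranged from 0 to 21 and 0 to 6, and from 46 to 623 and 27 to 159, with the fewest lower genes again without unt replicate 1. The exon log2 fold changes of these genes took both signs, from −1.03 to 0.034 for Cyp1b1, −0.082 to 1.04 for Fosb, −0.00692 to 0.80 for Hist1h2ab, −0.12 to 0.89 for Zfp750, −1.42 to 2.91 for Foxd3, −0.029 to 0.59 for Ddit4 and −1.57 to 0.51 for Lars2. Of the 41 called exon genes named, 32 moved by over 1.5 times with at least 1 library left out, 26 of them without unt replicate 1, and the 9 that did not were Atf3, Dusp1, Klf6, Bbc3, Gm48602, Gm45191, Gm43260, Alkbh3 and Pmm2. Sgk1 went from 0.35 to 0.043 without unt replicate 1. In the called genes named other than the 7 with both signs, no alternative run turned the sign. The causes were not tested.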
